A study of Mus musculus with 6 samples.

Results

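Small nucleolar RNAs (snoRNAs) and small Cajal body RNAs (scaRNAs) were followed in RNA sequenced from Lin-/cKit+/eYFP+ bone marrow progenitors of mice with and without a mutant copy of the splicing factor gene Srsf2. They were chosen by name alone, as rows of the count table whose symbol begins with Snord, Snora or Scarna and a number. The rule took 77 of 26027 genes, 48 of them box C/D snoRNAs (Snord), 21 box H/ACA snoRNAs (Snora) and 8 scaRNAs (Scarna). Both genotypes were C57BL/6 and carried hScl-CreERT, a tamoxifen-inducible Cre under an Scl element active in blood stem and progenitor cells, together with R26eYFP, a reporter of Cre recombination. All mice received tamoxifen. The groups were 3 libraries of Srsf2 P95H/+ and 3 of Srsf2 +/+ (wild type). Mice were 32 weeks old, apart from the 54-week female behind wild-type replicate 1. The remaining wild-type mice were male, whereas in P95H/+ the only male was replicate 3. The labels do not say that each library is a separate mouse, so p-values may measure only the spread between libraries.

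Library totals ran from 10747941 counts (P95H/+ replicate 3) to 23010510 (wild-type replicate 1). The progenitor marker Kit stood at 476 to 548 CPM (counts per M counts of the library) and the T cell marker Cd3e at 0.09 to 0.35 CPM, while the B lineage gene Cd79b was present at 21.3 to 34.2 CPM. Replicate 3 of both genotypes stood apart. Across the 77 genes, ranks by CPM had Spearman correlations of at least 0.979 between any pair of the other 4 libraries, of 0.891 to 0.965 between a replicate 3 library and any of these 4, and of 0.956 between the replicate 3 libraries themselves. The genes share libraries and length, so these values are descriptions. Results below are therefore given with and without the replicate 3 libraries where they rest on them.

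Box C/D snoRNAs carry the C and D sequence boxes, bind fibrillarin and guide ribose methylation, mostly of ribosomal RNA. Box H/ACA snoRNAs carry the H box and a terminal ACA, bind dyskerin and guide the conversion of uridine to pseudouridine. The scaRNAs are built from the same elements, gather in Cajal bodies and guide modification of the small nuclear RNAs of the spliceosome. In mammals most of these RNAs are cut out of introns of host genes after splicing, many hosts being genes of ribosomal proteins or noncoding RNAs, and a few are transcribed on their own. The comparison therefore asks about a set of RNAs most of which depend on splicing for their release. As a class, the 8 scaRNAs also serve the spliceosome, and which other members do so was not examined. RNA was depleted of ribosomal RNA and not selected for poly(A) tails, which these RNAs lack.

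The sequences below show both guide families and the RNAs whose values stand out in the results. They come from GENCODE M21 transcripts on mm10 and are written as DNA, 5′ to 3′. Capitals mark TGATGA, the core of box C, in the first 25 bases and CTGA, box D, in the last 15 bases of Snord genes. In Snora genes they mark ACA followed by 3 bases at the 3′ end, and the leftmost ANANNA (box H) between bases 40 and 90, which Snora78 lacks.
Snord83b: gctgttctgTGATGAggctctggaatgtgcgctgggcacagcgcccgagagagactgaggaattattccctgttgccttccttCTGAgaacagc
Snord82: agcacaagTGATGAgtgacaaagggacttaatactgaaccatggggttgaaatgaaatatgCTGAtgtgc
Snord72: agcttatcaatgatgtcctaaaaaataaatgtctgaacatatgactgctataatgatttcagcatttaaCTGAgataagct
Snord118: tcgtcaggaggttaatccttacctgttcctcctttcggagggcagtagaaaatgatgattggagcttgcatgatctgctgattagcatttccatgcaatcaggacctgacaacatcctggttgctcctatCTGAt
Snora57: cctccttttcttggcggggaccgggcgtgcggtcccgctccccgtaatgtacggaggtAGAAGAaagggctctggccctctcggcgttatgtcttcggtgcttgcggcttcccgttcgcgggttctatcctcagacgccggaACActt
Snora78: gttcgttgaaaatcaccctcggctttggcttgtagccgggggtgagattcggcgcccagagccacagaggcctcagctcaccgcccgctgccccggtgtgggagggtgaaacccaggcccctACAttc
Snord83b (chr15:80078498-80078591, minus strand, an intron of Rpl3) shows the plain box C/D layout, as does Snord82 (chr1:86356261-86356330, minus strand, an intron of Ncl). Snord72 (chr15:5118404-5118484, plus strand, an intron of Rpl37) has the lowest GC content of the 77 genes, at 29.6%. Snord118 (chr11:69073427-69073561, plus strand) lies in no counted host on its strand, and no TGATGA lies in its first 25 bases. Snora57 (chr19:8888538-8888685, minus strand) and Snora78 (chr17:24719676-24719803, minus strand) are GC-rich, at 62.2% and 64.1%.

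The motif searches, made on the given strand only, followed the names. TGATGA lay in its window in 29 of 48 Snord and 0 of 21 Snora genes, CTGA in 42 of 48 and 1 of 21, and the terminal ACA in 0 of 48 and 18 of 21. ANANNA, a loose pattern, lay in its window in 22 of 48 Snord and 20 of 21 Snora genes. Among 1558 annotated snoRNA and scaRNA genes the shares were 21.4% for TGATGA, 30.9% for CTGA, 19.3% for ACA and 80.8% for ANANNA, and among 3474 annotated snRNA and miRNA genes of 60 to 420 bases they were 0.2%, 4.5%, 2.4% and 51.4%. Snord43, a Snord gene by name, is annotated as a miRNA and so falls in the latter set. Neither TGATGA nor CTGA lay in its windows. Snord genes had a median length of 83.5 bases (64 to 238) and Snora genes of 132 bases (127 to 184). The 8 scaRNAs ranged from 70 bases in Scarna9 to 414 in Scarna2. Median GC content was close in both families, 46.6% for Snord and 46.7% for Snora.

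All 77 genes together held 871, 1051 and 1393 CPM in wild-type replicates 1, 2 and 3, and 891, 903 and 1039 CPM in those of P95H/+. The genotypes overlapped, and wild-type replicate 3 was the highest library. The difference of mean log2 summed CPM, P95H/+ minus wild type, was -0.20 (exact permutation test, two-sided, p = 0.6, adjusted p = 0.875 over the 5 sums and ratios compared). With 3 libraries against 3 this test cannot give a p below 0.1. Without wild-type replicate 3 the difference was -0.02, and without both replicate 3 libraries it was -0.09. In RNA of a sorted population, fewer cells of a type and less RNA per cell cannot be told apart.

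Box C/D snoRNAs summed to 289, 379 and 498 CPM in wild-type replicates 1, 2 and 3 and to 316, 318 and 371 CPM in those of P95H/+. The log2 difference was -0.18 (exact permutation p = 0.6, adjusted p = 0.875), and it was 0.01 without wild-type replicate 3. Box H/ACA snoRNAs summed to 188, 262 and 348 CPM in wild type and to 203, 201 and 287 CPM in P95H/+, a log2 difference of -0.18 (exact permutation p = 0.7, adjusted p = 0.875) that was 0.04 without wild-type replicate 3. In both families the wild-type libraries ranged on both sides of replicates 1 and 2 of P95H/+.

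The scaRNAs summed to 394, 410 and 547 CPM in wild type and to 371, 385 and 380 CPM in P95H/+. Scarna2 alone held most of each sum, and its own levels overlapped between the genotypes. In summed CPM over library totals, every P95H/+ library lay below every wild-type library, by a log2 difference of -0.23. Its exact permutation p of 0.1 is the smallest that 3 against 3 can give, and the adjusted p over the 5 values was 0.5. The size rested on wild-type replicate 3, since the difference was -0.09 without that library and -0.09 without both replicate 3 libraries. With TMM-scaled library sizes it was -0.16, and the summed levels of the genotypes then overlapped.

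The balance of the families was described by a ratio. Summed box C/D over box H/ACA CPM was 1.54, 1.45 and 1.43 in wild type and 1.55, 1.58 and 1.29 in P95H/+, with P95H/+ replicate 3 the lowest. The log2 difference was -0.0028 (exact permutation p = 1, adjusted p = 1). Taken as a median over members of log2(CPM + 0.5) rather than from sums, which a few RNAs dominate, the difference was 0.29 (exact permutation p = 0.4). Set against the summed annotated length, the ratio lay between 0.865 in P95H/+ replicate 3 and 1.06 in P95H/+ replicate 2, so that per kilobase the families held similar totals. Box C/D made up 33.2% to 36.0% of the CPM of the 77 genes in the 6 libraries, box H/ACA 21.6% to 27.7% and scaRNAs 36.6% to 45.2%.

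**Figure D1:**
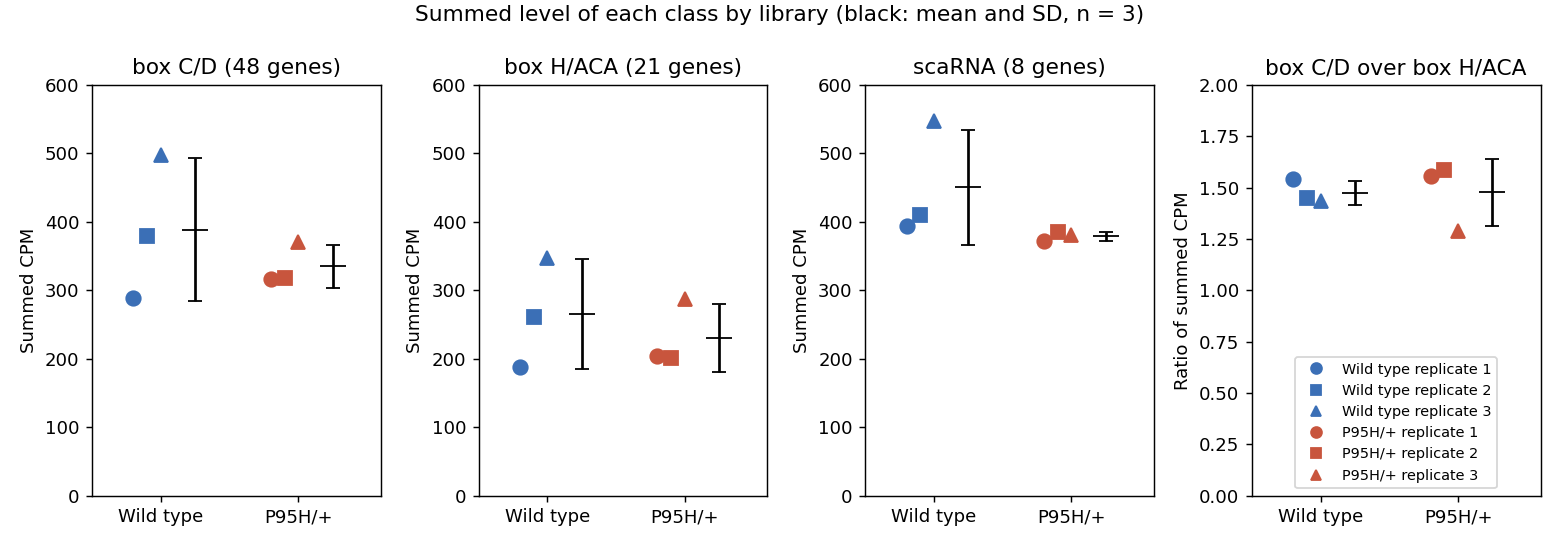
Summed CPM of box C/D snoRNAs, box H/ACA snoRNAs and scaRNAs, and the box C/D to box H/ACA ratio, for each library (points, shape by replicate) with the mean and SD of 3 libraries in black. Wild-type replicate 3 is the highest library in each class, and P95H/+ replicate 3 has the lowest ratio, 1.29.

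A few RNAs held most of the signal. Scarna2, Snord17 and Scarna13 made up 43.9% to 49.3% of the CPM of the 77 genes, and the 10 most abundant 69.0% to 76.2%. Of the 77 genes, 17 had a mean of at least 10 CPM, 46 of 1 to 10 CPM and 14 of under 1 CPM. Per kilobase of annotated length the median member stood at 30.3 CPM in box C/D, 42.5 CPM in box H/ACA and 94.0 CPM among scaRNAs. Over the 62 members with a mean of at least 20 counts, CPM per kilobase still rose with length (Spearman 0.396). Within families this correlation was 0.192 over 40 box C/D and -0.043 over 16 box H/ACA members. Whether the libraries recovered RNAs of unlike length equally was not tested, so abundance here means level in CPM. Genes are named below in order of CPM, which is not corrected for length, and per kilobase the order differs in places.

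Scarna2 (chr3:108554338-108554751, minus strand, no counted host on its strand), a guide for methylation of the U2 small nuclear RNA, was the most abundant member. It stood at 273, 281 and 354 CPM in wild-type replicates 1, 2 and 3 and at 257, 268 and 295 CPM in P95H/+, or 695 CPM per kilobase on average. Its libraries overlapped, with a log2 fold change of -0.07 (SE 0.19). The value without both replicate 3 libraries was -0.05 (SE 0.08).

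Scarna13 (chr12:105031075-105031349, minus strand, within the noncoding gene Snhg10) stood at 61.97, 70.2 and 114 CPM in wild type and at 61.5, 64.0 and 36.5 CPM in P95H/+. Wild-type replicate 3 was the highest library and P95H/+ replicate 3 the lowest, while the other 4 lay within 61.5 to 70.2 CPM. Its log2 fold change of -0.53 (SE 0.31), the largest among scaRNAs in size, was -0.04 (SE 0.095) without both replicate 3 libraries. Scarna6, in an intron of the autophagy gene Atg16l1, stood at 37.0, 41.8 and 63.8 CPM in wild type and at 33.9, 36.4 and 37.5 CPM in P95H/+. Here only wild-type replicate 3 stood far from the others.

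Scarna9, annotated at 70 bases in an intron of the centrosome gene Cep295, had the highest ratio of its top library to its bottom library among the 5 scaRNAs of highest CPM. It stood at 15.8, 7.77 and 4.16 CPM in wild type and at 12.4, 9.33 and 2.23 CPM in P95H/+. Both replicate 3 libraries were the lowest of their genotype, the reverse of Scarna2 and Scarna6, and the genotypes overlapped. Its GC content is 41.4%, against 64.0% in Scarna2. Scarna17, also with no counted host, stood at 3.43, 5.92 and 6.89 CPM in wild type and at 4.11, 4.599 and 5.86 CPM in P95H/+, which overlapped. Scarna8, in an intron of Haus6, had a mean of 2.78 CPM, and Scarna3a and Scarna3b had means of 0.203 and 0.171 CPM. These last 2 share 85.7% of their bases, and whether reads of either were counted for the other was not tested.

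Snord17, in an intron of Snx5 (chr2:144265979-144266216, minus strand), is the longest box C/D member at 238 bases and the most abundant. It stood at 94.9, 111 and 172 CPM in wild type and at 92.7, 93.8 and 164 CPM in P95H/+. Replicate 3 was the highest library in each genotype, by a similar step, and the log2 fold change was -0.02 (SE 0.33). Snord118, the U8 snoRNA needed for processing of the large subunit ribosomal RNAs, stood at 35.1, 53.7 and 80.2 CPM in wild type and at 37.5, 42.1 and 52.8 CPM in P95H/+. The P95H/+ libraries lay within the wild-type range, at a log2 fold change of -0.27 (SE 0.32). Snord13, the U13 snoRNA that assists acetylation of the small subunit ribosomal RNA, stood at 11.9, 19.1 and 23.7 CPM in wild type and at 13.4, 14.9 and 17.1 CPM in P95H/+, again within the wild-type range.

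Snord15a, in the ribosomal protein gene Rps3, stood at 26.6, 32.6 and 45.4 CPM in wild type and at 28.2, 27.2 and 21.5 CPM in P95H/+. Snord83b, in Rpl3, stood at 8.30, 15.5 and 18.7 CPM in wild type and at 12.4, 11.2 and 11.2 CPM in P95H/+. Both overlapped between the genotypes. In wild type, replicate 1, from the older mouse, was the lowest library of each of these 5 box C/D genes.

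Rpl13a, a ribosomal protein gene, hosts Snord32a, Snord33, Snord34 and Snord35a in its introns, a group reported to act in the response of cells to lipid stress. From 1 host they stood at unequal levels. Snord32a stood at 3.69, 6.07 and 5.94 CPM in wild type and at 5.44, 5.17 and 6.98 CPM in P95H/+. Snord35a stood at 2.04, 3.41 and 4.99 CPM and at 2.72, 2.12 and 2.51 CPM, and Snord34 at 0.522, 1.18 and 1.54 CPM and at 0.738, 0.708 and 2.14 CPM. Snord33, which overlaps an exon of some Rpl13a transcripts, was lowest at 0.13 to 0.37 CPM, too low for the test. Mean CPM per kilobase ran from 3.05 for Snord33 to 66.9 for Snord32a, and the genotypes overlapped for each of the 4.

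Among box H/ACA snoRNAs, Snora78 and Snora57 led. Snora78, within the noncoding gene Snhg9 and opposite to Rps2, stood at 25.6, 33.5 and 50.3 CPM in wild type and at 25.7, 25.5 and 70.4 CPM in P95H/+. Snora57, opposite to Lbhd1, stood at 23.6, 37.0 and 53.4 CPM in wild type and at 26.4, 25.5 and 60.2 CPM in P95H/+. For both, P95H/+ replicate 3 was the highest of the 6 libraries. Their log2 fold changes were 0.24 (SE 0.47) and 0.06 (SE 0.44), and without both replicate 3 libraries they were -0.18 (SE 0.14) and -0.19 (SE 0.23). The labels do not give the strand setting of the counting, so reads of a gene on the other strand could enter these counts.

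Snora17, with no counted host on its strand, stood at 22.7, 33.3 and 46.6 CPM in wild type and at 30.3, 24.5 and 31.2 CPM in P95H/+. Snora23, in an intron of the nuclear import gene Ipo7, stood at 20.5, 31.5 and 43.5 CPM in wild type and at 23.6, 24.2 and 23.0 CPM in P95H/+. These groups overlapped. Snora28, in the translation factor gene Eif5 and overlapping an exon of some of its transcripts, was even in wild type, at 22.2, 25.8 and 22.3 CPM, and stood at 18.6, 21.4 and 11.8 CPM in P95H/+. It did not overlap between the genotypes, with a log2 fold change of -0.37 (SE 0.26). Its edgeR quasi-likelihood adjusted p was 1. Without both replicate 3 libraries its value was -0.23 (SE 0.13).

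**Figure D2:**
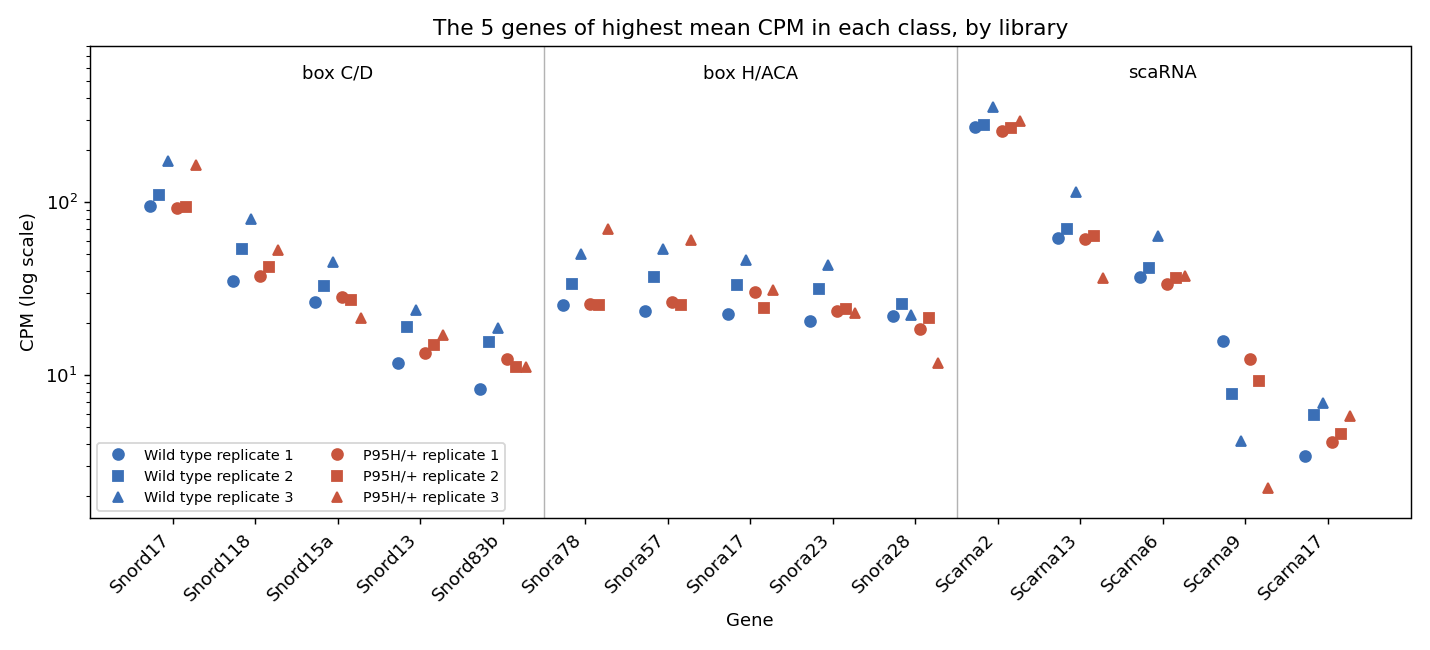
CPM on a log axis of the 5 genes of highest mean CPM in each class, for each of the 6 libraries (blue wild type, red P95H/+, shape by replicate). Replicate 3 libraries (triangles) lie highest for Snord17, Snora78 and Snora57 and lowest for Scarna9, while the genotypes overlap for all but Snora28.

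Gene by gene, 67 of the 77 could be tested and none passed. The quasi-likelihood F test of edgeR was run on 17144 genes. At an adjusted p under 0.05 it called 0 genes (0.0%), and 361 (2.11%) lay under 0.05 unadjusted, 0.7% higher and 1.41% lower in P95H/+. Of the 67 members, 0 met either threshold. DESeq2 called 7 genes and limma voom 0, and neither called a member or gave one an unadjusted p under 0.05. The 10 untested members were 3 box C/D, 5 box H/ACA and 2 scaRNAs, with means of 0.351 CPM or less.

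Without both replicate 3 libraries 144 of 17371 genes passed (0.829%), 32 higher (0.184%) and 112 lower (0.645%) in P95H/+. Of 68 members tested there, 0 passed. At an unadjusted p under 0.05 the share of all genes was 15.6%, with 6.14% higher and 9.44% lower in P95H/+, and 0 of the 68 members had such a p. The smallest adjusted p of a member in this fit of 2 libraries against 2 was 0.371. Its P95H/+ libraries were both from 32-week females, and its wild-type libraries from a 54-week female and a 32-week male. Genotype therefore cannot be fully told apart from sex and age in this fit.

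Most members had a negative fold change. With all 6 libraries 16 of 67 members (23.9%) lay above 0, against 53.1% of all genes tested, and their median was -0.17 against 0.02 for all genes. By class, 14 of 45 box C/D, 2 of 16 box H/ACA and 0 of 6 scaRNAs lay above 0, with medians of -0.15, -0.27 and -0.23. Without both replicate 3 libraries 25 of 68 (36.8%) lay above 0, against 49.6% of all genes, and the median was -0.06 against -0.0029. In that fit box C/D members had a median of -0.0046 and box H/ACA members of -0.18. Wild-type replicate 3 held the highest CPM of 37 of the 67 members and P95H/+ replicate 3 the lowest of 26, while wild-type replicate 1 held the lowest of 21. The same shares over all genes were not computed, so these counts do not set the members apart.

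The CPM of the genotypes did not overlap for 3 of the 67 tested members, all lower in P95H/+, which is 4.48% against 5.93% of all genes. None was higher without overlap, against 1.91% of all genes. Besides Snora28 they were Snora30, in the chromatin remodelling gene Srcap, and Snord87, in the noncoding gene Snhg6, the latter named after its values were seen. Snora30 stood at 4.78, 5.73 and 7.12 CPM in wild type and at 4.199, 4.47 and 4.001 CPM in P95H/+. Snord87 stood at 1.65, 1.56 and 1.42 CPM in wild type and at 1.34, 1.37 and 0.558 CPM in P95H/+. The share of such genes was near that of all genes. Among the untested members Scarna3b and Snora16a, each under 0.35 CPM in every library, did not overlap either.

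The smallest unadjusted p among lower members belonged to Snora69, in the ribosomal protein gene Rpl39. It stood at 4.52, 7.01 and 8.85 CPM in wild type and at 4.71, 4.599 and 3.72 CPM in P95H/+, a log2 fold change of -0.56 (SE 0.30). Scarna13, Snord59a at -0.75 (SE 0.45), Snora30 at -0.40 (SE 0.25) and Snord89 at -0.45 (SE 0.29) came next. In the fit of the other 4 libraries Snora69 was at -0.28, Snord59a at -0.38, Snora30 at -0.25 and Snord89 at -0.37. On leaving out 1 library Snora69 ran from -0.79 to -0.35 and Snord59a from -1.07 to -0.35. Snord59a, in the ATP synthase gene Atp5b, rested on under 1 CPM in 5 of the 6 libraries. Among members above 0 the smallest p belonged to Snord100 at 0.23 (SE 0.26), Snord42b at 0.38 (SE 0.47), Snord32a at 0.24 (SE 0.30), Snord55 at 0.28 (SE 0.40) and Snord72 at 0.45 (SE 0.78). Snord55, at 63.3% GC, stood at 3.69, 5.97 and 8.97 CPM in wild type and at 5.86, 5.62 and 9.96 CPM in P95H/+, highest in replicate 3 of each genotype. All of these overlapped between the genotypes except Snora30, and each had an adjusted p of 1.

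**Figure D3:**
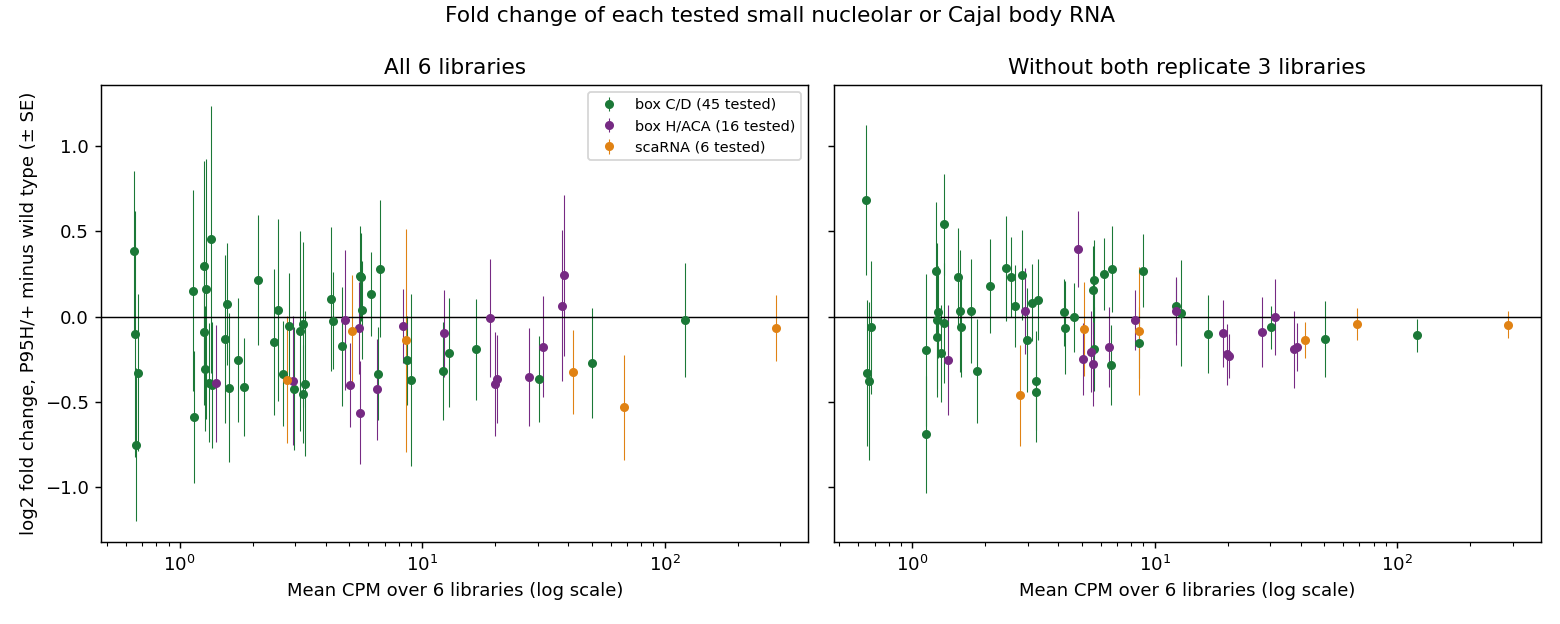
Log2 fold change of P95H/+ against wild type (points, with SE bars) for each tested gene over its mean CPM on a log axis, with all 6 libraries at left and without both replicate 3 libraries at right. Of the 67 tested genes 16 lie above 0 at left, and none passes the test in either panel.

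How far replicate 3 stood from replicates 1 and 2 of its genotype followed GC content. This was examined in the 62 members with a mean of at least 20 counts, as the difference of log2(CPM + 0.5). In wild type all 9 members of over 55% GC were higher in replicate 3, with a median of 0.67, and 4 of the 7 members of at most 40% GC, with a median of 0.05. In P95H/+ the same groups had 7 of 9 higher, with a median of 0.73, and 0 of 7, with a median of -1.04. The Spearman correlation with GC content over the 62 genes, which share the libraries, was 0.490 in wild type and 0.604 in P95H/+. It was similar within each family, 0.526 and 0.612 over 40 box C/D and 0.537 and 0.618 over 16 box H/ACA members.

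Members at the ends of the range differed in composition, though not all of them followed it. Snord72, at 29.6% GC, stood at 1.91, 1.18 and 0.475 CPM in wild type and at 2.26, 2.17 and 0.093 CPM in P95H/+, lowest in replicate 3 of both. Snord70, at 32.2% GC, stood at 3.74, 4.12 and 2.08 CPM and at 3.55, 4.599 and 0.651 CPM. Snord82, at 41.4% GC, was at 0.178 and 0.372 CPM in the replicate 3 libraries, against 1.68 to 1.89 CPM in the other 4. Snord23, at 65.1% GC the highest of the members, stood at 2.13, 3.51 and 4.39 CPM and at 1.89, 2.17 and 5.30 CPM. Snord43, at 46.3% GC and annotated as a miRNA, went apart in the genotypes. It was highest in wild-type replicate 3 at 14.1 CPM and lowest in P95H/+ replicate 3 at 2.61 CPM. The other 4 libraries stood at 6.74 to 10.3 CPM. Snora62, at 47.7% GC, had the highest wild-type difference of the 62, at 1.22. Snord37, at 42.2% GC, differed by 0.75 in wild type and by 1.21 in P95H/+. Snord70, Snord82, Snord23, Snord43, Snora62 and Snord37 were chosen here after their values were seen. The part of GC content in these differences was not tested.

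**Figure D4:**
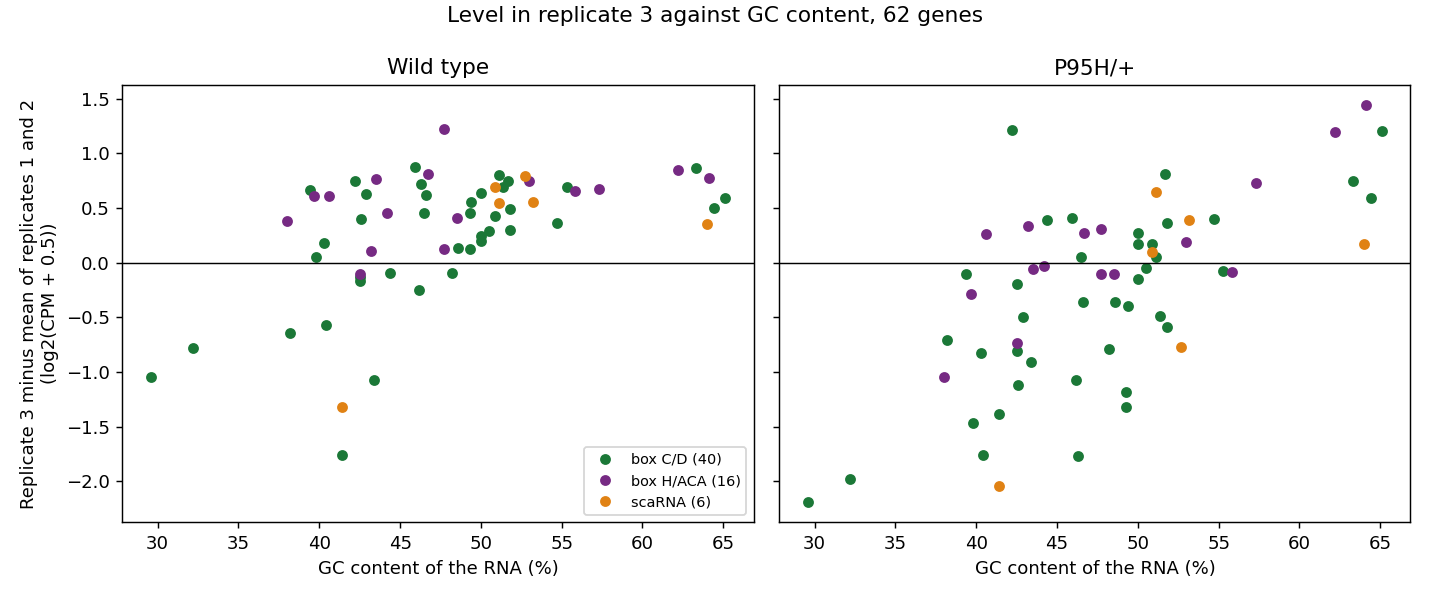
Log2(CPM + 0.5) of replicate 3 minus the mean of replicates 1 and 2, over the GC content of each RNA in percent, for 62 genes with a mean of at least 20 counts, coloured by class, in wild type (left) and P95H/+ (right). Genes of at most 40% GC have medians of 0.05 and -1.04 and genes above 55% of 0.67 and 0.73.

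Of the 77 members, 69 lay within a counted host on the same strand, 20 in ribosomal protein genes, 40 in other protein-coding genes and 9 in noncoding genes. In 16 of these the member overlapped an exon of at least 1 annotated host transcript, and in 53 it was intronic in all that span it. The 8 others, Scarna13 in Snhg10 among them, had no host counted here and were the most abundant, with a median of 34.6 CPM against 5.56 CPM for members in ribosomal protein genes, 2.498 CPM in other protein-coding genes and 1.85 CPM in noncoding genes. Per kilobase these medians were 243, 54.9, 21.3 and 24.3 CPM. The level of a member did not track that of its host closely, with a Spearman correlation of mean CPM of 0.197 over 69 pairs, in which members of 1 host share its value.

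Hosts and members were also set side by side between genotypes. The ribosomal protein hosts had a median log2 fold change of -0.02 and their members of -0.05, the other protein-coding hosts 0.10 and their members -0.16, and the noncoding hosts -0.08 and their members -0.32. Of 36 other protein-coding hosts 30 lay above 0, while 5 of their 32 tested members did. When both replicate 3 libraries were left out the medians were 0.05 for ribosomal protein hosts (14 of 15 above 0) and 0.03 for their members, 0.07 for other protein-coding hosts and -0.09 for their members (11 of 33 above 0), and 0.05 for noncoding hosts and -0.18 for their members. Over 59 tested pairs the Spearman correlation of fold changes was 0.103. Among named hosts, Snx5 was at 0.10 (SE 0.24), Atg16l1 at -0.11 (SE 0.17), Eif5 at 0.05 (SE 0.37), Ipo7 at 0.02 (SE 0.34), Cep295 at 0.15 (SE 0.36) and Srcap at 0.26 (SE 0.24). The ribosomal protein hosts Rps3, Rpl3, Rps12, Rpl37, Rpl23a, Rpl39 and Rpl13a lay between -0.31 and 0.12, and Atp5b was at 0.07. The noncoding genes Gas5 and Snhg1, which host none of the 77 genes here, and Snhg12 were at 0.16 (SE 0.52), 0.01 (SE 0.45) and -0.08 (SE 0.35), and Snhg9 and Gm15832, hosts of Snora78 and Snord89, at 0.32 (SE 0.35) and -0.28 (SE 0.35). None of these hosts passed the test.

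Members and hosts were compared by how far replicate 3 stood from replicates 1 and 2. Of 54 members with a host and at least 20 counts on average, 31 were higher in wild-type replicate 3 than in replicates 1 and 2 while their host was lower, and 12 in P95H/+ replicate 3. The median shift was 0.42 for members and -0.25 for hosts in wild type, and -0.11 and -0.71 in P95H/+. Snora21, in the ribosomal protein gene Rpl23, gives an example, being higher by 0.81 in wild-type replicate 3 and by 0.27 in P95H/+ replicate 3, while its host Rpl23 differed by -0.85 and -1.69. Snora21 was named after its values were seen. Whether composition, RNA quality or processing parted them was not tested.

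**Figure D5:**
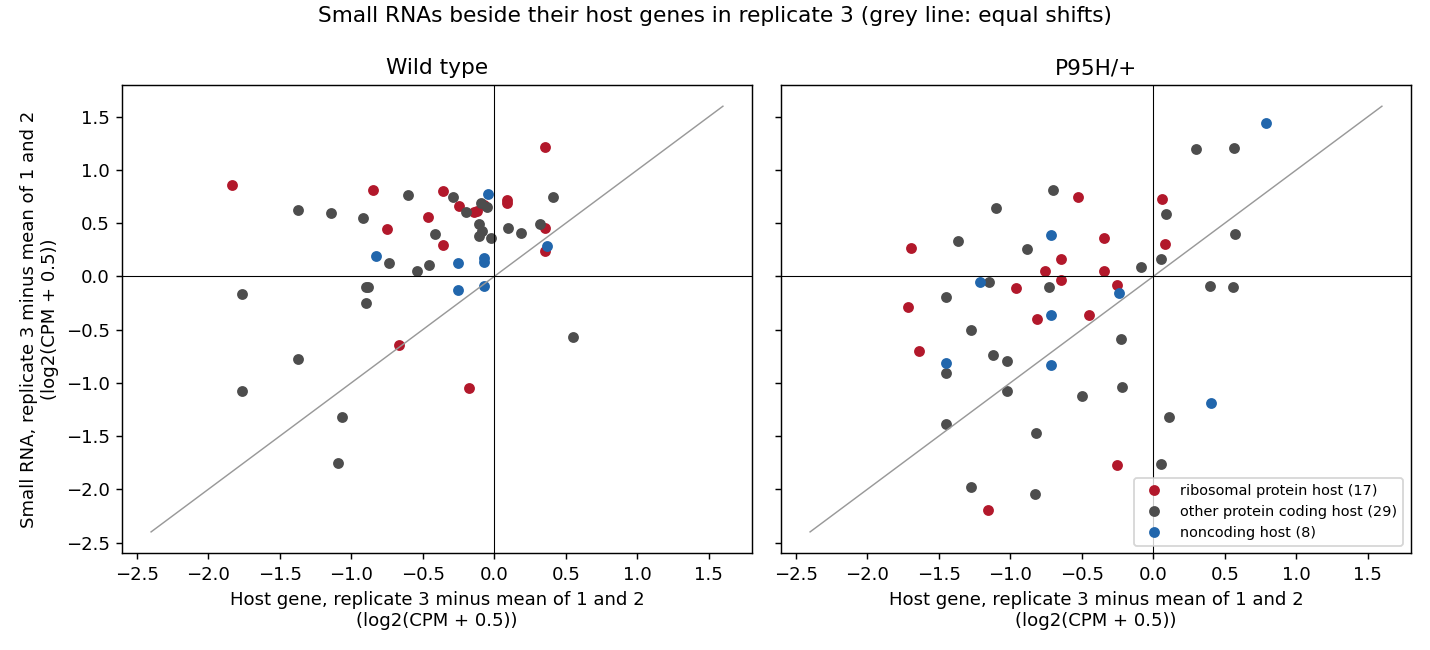
Log2(CPM + 0.5) of replicate 3 minus the mean of replicates 1 and 2 for 54 small RNAs (vertical) over the same difference for their host gene (horizontal), coloured by kind of host, with a grey line where both shift alike. In wild type 47 of 54 points lie above the line and in P95H/+ 38 of 54.

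The proteins that bind, build and process these RNAs, and noncoding host genes, made up lists of 50 tested genes. With all 6 libraries 0 of them passed the edgeR test or had an unadjusted p under 0.05, where 2.11% of all genes did. Without both replicate 3 libraries 0 passed, the smallest adjusted p being 0.102. There 12 (24.0%) had an unadjusted p under 0.05, against 15.6% of all genes in either direction. All 12 were above 0, where the share of all genes was 6.14% higher and 9.44% lower. The 12 included Nhp2, Dkc1 and Nop10 of the box H/ACA core and 4 noncoding hosts. With all libraries the genotypes did not overlap for 3 of the 50 (6.0%), Nhp2, Naf1 and Exosc10, each higher in P95H/+, against 1.91% of all genes higher. Of the 50, 0 were lower without overlap, against 5.93% of all genes. Of the box C/D core proteins, 3 of 4 lay above 0 with a median of 0.12, among them the scaffold protein gene Nop56 at 0.25 (SE 0.23), while the methyltransferase gene Fbl was at -0.12 (SE 0.25). Of the box H/ACA core proteins, 2 of 4 lay above 0, and 4 of 4 without both replicate 3 libraries, with medians of 0.14 and 0.23. Nhp2 stood at 81.3, 90.6 and 82.6 CPM in wild type and at 112, 103 and 95.5 CPM in P95H/+. Its log2 fold change was 0.36 (SE 0.18, edgeR adjusted p = 1), and Dkc1, the pseudouridine synthase gene, was at 0.34 (SE 0.41).

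Assembly factors had 8 of 9 members above 0 and a median of 0.11, with the H/ACA chaperone gene Naf1 at 0.53 (SE 0.24) and the ATPase gene Ruvbl2 at 0.26 (SE 0.22). Naf1 stood at 67.4, 70.6 and 53.4 CPM in wild type and at 77.2, 75.6 and 108 CPM in P95H/+. Naf1 was at 0.18, Nhp2 at 0.35, Exosc10 at 0.14 and Tcof1 at 0.01 without both replicate 3 libraries. The Cajal body and trafficking list had 5 of 9 above 0 and a median of 0.14, with Tcof1 at 0.34 (SE 0.27) and Smn1, the survival motor neuron gene, at 0.23 (SE 0.20). Processing enzymes had 7 of 8 above 0 and a median of 0.07, with the nuclear exosome gene Exosc10 at 0.37 (SE 0.21) and the poly(A) polymerase gene Papd5 at 0.17 (SE 0.24). Of 16 tested noncoding host genes 8 lay above 0, with a median of -0.02, and Snhg20 was at -0.26 (SE 0.24). All genes tested had a median of 0.02 with 53.1% above 0. Leaving out both replicate 3 libraries, the processing enzymes had 4 of 8 above 0 and a median of 0.0035, the Cajal body and trafficking list a median of 0.016, and the noncoding hosts 13 of 16 above 0 and a median of 0.14.

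The least abundant members stood near the limit of detection. At least 1 count was found for 76, 77 and 75 of the 77 members in wild-type replicates 1, 2 and 3 and for 76, 75 and 73 in those of P95H/+, and at least 10 counts for 67, 65 and 64 and for 68, 68 and 53. With every library thinned to 10747941 counts the members detected numbered 75, 77 and 74 and 74, 75 and 73. Snord67, within Ckap5, had no count in 4 libraries, Snord90 and Snora36b in 2, and Snora16a and Snora19 in P95H/+ replicate 3. A count of 0 allows a level of up to 0.279 CPM in that library and of 0.130 to 0.178 CPM in the others, from 3 counts of the total and for counting error alone. At these depths a difference between the genotypes was not detectable for these members.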

How the data were processed

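RNA of Lin-/cKit+/eYFP+ cells was depleted of ribosomal RNA and made into libraries with a stranded kit, per the labels' protocols. The submitters' processing notes name the build mm10, featureCounts, Subread 1.5.1, the aligner STAR 2.5.3a, the trimmers cutadapt and Trim Galore, limma, edgeR and Picard 1.96. The annotation, the strand setting and the treatment of reads that overlap a host exon or map to several places are not given in the sources used here, and each could change the count of a small RNA inside a host. The deposited table holds raw counts. The authors' CPM tables (26027 genes with 77 members, and 15466 retained genes with 64) equalled counts over the total of the genes each table holds within 0.0005. CPM here are counts over the whole library total.

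Genotypes were compared with edgeR 4.0.16 (R 4.3.3): TMM, filterByExpr, robust quasi-likelihood F test, two-sided, Benjamini-Hochberg over all tested genes, threshold 0.05. Sums were compared by exact permutation over libraries. Other settings used DESeq2 1.42.0, limma 3.58.1, other scalings, no filter, sex, a replicate block and left-out libraries. The edgeR script was tested on simulated data. Deviations from group means correlated above 0.1 for each replicate number (0.372, 0.348 and 0.613). However, wild-type 1 with P95H/+ 2 (0.463) and wild-type 2 with P95H/+ 1 (0.386) correlated as much. These values therefore do not show that numbers 1 and 2 are pairs, and no source names a pairing. The reported tests were unpaired, and the replicate block served only as another setting. The block changed no call of a member. Hosts, lengths and sequences came from GENCODE M21 (all 77 matched), the host being the same-strand gene of highest mean CPM that spans the member.

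The members and lists were chosen with earlier results of these data known. Named genes are the 5 most abundant of each class, the 5 of smallest p in each direction, members of known role, their hosts and 2 genes per protein list. A further host gene that this rule names is not reported here.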

Additional observations from a re-analysis of the deposited data

How the results depend on the processing

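No member passed the test under any setting. Over all genes DESeq2 called 7, the fit with the replicate block, which pairs libraries of one number, called 1, leaving out 1 library called 0 to 1 and leaving out both replicate 3 libraries called 144. The cause was not tested. Members at an unadjusted p under 0.05 numbered 0 to 1 on leaving out 1 library, Snora69 without wild-type replicate 1, Snord59a without wild-type replicate 2 and Snord88c without P95H/+ replicate 3. By arithmetic, the replicate block cannot change the differences of summed CPM, which stayed at -0.20 for all 77 genes. On leaving out 1 library they ran from -0.36 to -0.02 for all, -0.38 to 0.013 for box C/D, -0.41 to 0.036 for box H/ACA, -0.32 to -0.09 for scaRNAs and -0.057 to 0.092 for the ratio. The log2 difference of the ratio was 0.072 without both replicate 3 libraries, and 0.29 from medians over members in place of sums. Depth limits the members of under 1 CPM.

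Of 56 named genes 30 turned in sign under at least 1 of 14 settings, the cause not being tested. With relative log expression size factors these were Snord17 at 0.0076, Rps3 at 0.0045 and Rpl3 at 0.022. With sex as a covariate these were Snord17 at 0.19, Snord118 at 0.011, Snord13 at 0.056, Snord83b at 0.043, Snora17 at 0.048, Scarna2 at 0.0079, Scarna17 at 0.20, Snord72 at -0.42, Eif5 at -0.25, Snx5 at -0.048, Cep295 at -0.074, Gas5 at -0.42, Ipo7 at -0.28 and Snhg1 at -0.51. Without both replicate 3 libraries these were Snord83b at 0.019, Snora78 at -0.18, Snora57 at -0.19, Snord34 at -0.20, Rps3 at 0.037, Rpl37 at 0.062, Rpl23a at 0.055, Rpl3 at 0.066, Rps12 at 0.13, Snhg12 at 0.24, Snhg9 at -0.11 and Fbl at 0.11. With library totals only these were Snora57 at -0.027, Eif5 at -0.0100, Atp5b at -0.0026, Ipo7 at -0.042 and Snhg1 at -0.049. With limma voom these were Snora57 at -0.019, Ipo7 at -0.024 and Snhg1 at -0.17. With DESeq2 these were Rps3 at 0.00093 and Rpl3 at 0.018. With the replicate block these were Ipo7 at -0.031 and Snhg1 at -0.17. On leaving out 1 library the ranges that crossed 0 were Snord17 -0.37 to 0.26, Snord118 -0.52 to 0.053, Snord13 -0.43 to 0.027, Snord83b -0.49 to 0.0200, Snora78 -0.45 to 0.53, Snora57 -0.49 to 0.37, Snora17 -0.40 to 0.095, Scarna2 -0.15 to 0.046, Scarna9 -0.60 to 0.48, Scarna17 -0.33 to 0.11, Snord55 -0.052 to 0.62, Snord34 -0.50 to 0.46, Eif5 -0.19 to 0.33, Atp5b -0.012 to 0.18, Snx5 -0.026 to 0.28, Rps3 -0.13 to 0.10, Rpl37 -0.37 to 0.14, Cep295 -0.13 to 0.37, Gas5 -0.21 to 0.55, Rpl23a -0.43 to 0.23, Rpl3 -0.077 to 0.059, Rps12 -0.30 to 0.024, Ipo7 -0.17 to 0.30, Rpl39 -0.61 to 0.060, Snhg12 -0.42 to 0.23, Snhg9 -0.073 to 0.51, Snhg1 -0.31 to 0.40, Fbl -0.28 to 0.087 and Papd5 -0.023 to 0.28.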
